A study of Mus musculus with 4 samples.

Results

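Heart and skeletal muscle of control mice were compared gene by gene on oligonucleotide arrays. The comparison used the f/f heart array and the f/f muscle array, 2 of the 4 arrays in the series, with 1 array per group. The f/f mice carry 2 copies of a floxed MnSOD gene (Sod2, the mitochondrial superoxide dismutase) and are the study's controls. The d/d mice were bred from the same floxed line and MCK-Cre mice, whose Cre recombinase runs from the muscle creatine kinase promoter in muscle tissues, and are labelled as deficient in MnSOD in both tissues. Their heart and muscle arrays are given here only beside the control values. The labels give neither the name of the muscle, the age and sex of the mice, nor the number of animals behind a sample. Whether both tissues were taken from shared animals is also unstated. There are no replicates, so differences within the f/f pair describe 2 arrays and carry no test.

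Heart and skeletal muscle are both striated muscle, built from repeating sarcomeres in which myosin thick filaments pull on actin thin filaments. Many of the proteins involved come in paired genes, a heart form and a skeletal form, which arose by duplication. The heart beats without rest on fatty acids, lactate and ketones, its cells are coupled electrically through intercalated discs, and its calcium release is triggered by calcium entering through a surface channel. Skeletal fibres are single cells under nerve control. Fast fibres among them burn glycogen and release calcium through direct contact between the surface channel and the release channel.

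Values are signals, the deposited intensities after each array was scaled to a common 2% trimmed mean, with a floor of 7.51 under which a signal is treated as background. When the dimmer signal fell below the floor, only a minimum fold can be given, and "at least" stands before it. A gene was counted as higher in a tissue when it was at least 2-fold higher there. Of 18193 genes on the arrays, 14442 were above the floor on at least 1 of the 2 f/f arrays. Of these, 1736 (12.0%) were at least 2-fold higher in heart and 1190 (8.24%) in muscle. These shares are the background for every 2-fold count of the f/f pair below. Differences of 16-fold or more were seen for 77 genes in heart and 87 in muscle, and of 100-fold or more for 9 and 19. Of the measured genes, 8341 (57.8%) differed by less than 1.5-fold. These include genes at or near the floor on both arrays, where the floor limits the fold, so not all of them were expressed in both tissues.

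The split between the tissues depended on how the arrays were scaled. Heart-higher genes made up 59.3% of the called genes with trimmed-mean scaling, 46.8% when arrays were scaled to the median of their probe sets above the floor, and 83.8% on the deposited values without scaling. The median over all genes was 0.08 on the log2 scale (heart minus muscle) and 0.47 without scaling. Gene group medians under 0.5 in size could therefore change sign, and no direction is read from them. As a yardstick of measurement error, probe sets for a single gene disagreed with an SD of 0.607 in log2 difference, over 6695 genes. Of 855 heart-higher genes with several measured probe sets, 547 had a probe set short of 2-fold in that direction. In 170 of them it pointed to muscle. Of 575 such muscle-higher genes, 382 had a probe set short of 2-fold, and in 152 it pointed to heart.

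**Figure D1:**
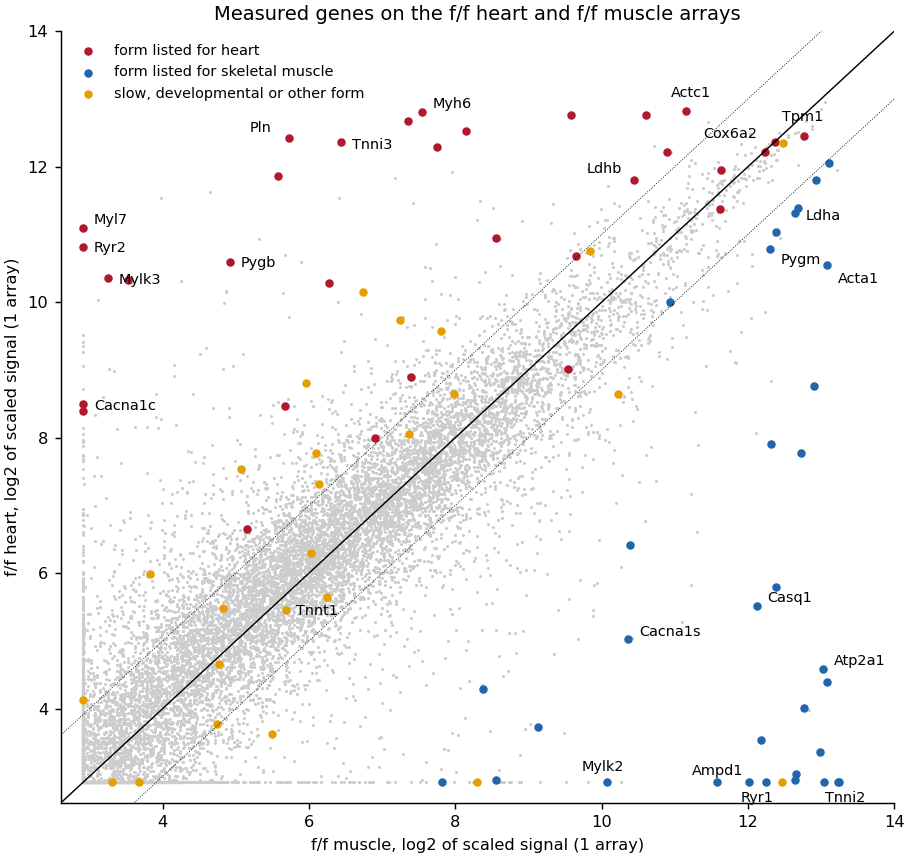
Signals of the measured genes in f/f muscle (horizontal axis) and f/f heart (vertical axis), both log2, with each signal under the floor set to it. Each point is a gene, coloured where it belongs to a paralogue family; the solid line marks equal signals and dotted lines 2-fold. The 1736 heart-higher genes lie above the upper dotted line or on it and the 1190 muscle-higher genes below the lower, with Myl7 and Ryr2 along the muscle floor and Tnni2 and Ryr1 along the heart floor.

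The tissue effect was also fitted over both genotypes with limma, with genotype as a block and 1 residual degree of freedom. This uses the d/d pair as the second measurement of the tissue difference and includes the f/f arrays, so it is not independent of them. Of 13434 genes tested, 1109 (8.26%) were higher in heart and 777 (5.78%) higher in muscle at a Benjamini-Hochberg adjusted p of 0.05. Of the genes past 2-fold in the f/f pair, 1043 of 1736 and 739 of 1190 were among these calls. Calls of this fit are named "limma calls" below. The error of this fit is the change of the tissue difference between the 2 genotypes, moderated over genes. All p-values are set against that error and do not measure the spread between animals. A gene whose tissue difference changes with genotype can lose its call for that reason.

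Defining markers were set beside the tissue labels. All 17 measured cardiomyocyte markers were at least 2-fold higher in f/f heart, with a median of 5.58 on the log2 scale, and all 17 fast fibre markers were higher in f/f muscle, with a median of -8.77. The 9 ventricular markers included 8 higher in heart and the 15 atrial markers 13, so markers of both chambers were present in the heart sample. In f/f muscle 12 cardiomyocyte, 6 ventricular and 10 atrial markers were above the floor, and in f/f heart 12 fast fibre markers. Markers above it in 1 of the tissues alone had their direction fixed. Sod2 itself read 2330, 2156, 363 and 67.8 on its 4 probe sets in f/f heart and 1667, 1236, 401 and 61.6 in f/f muscle. In d/d heart the same probe sets read 1927, 1859, 211 and 29.2, and in d/d muscle 1732, 1123, 325 and 45.5. No label or file places these probe sets inside or outside the deleted part, so they do not check the genotype. In whole tissue, fewer cells of a type and less RNA per cell cannot be told apart.

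The alpha actins gave the simplest case of paired genes. Actc1, cardiac alpha actin, read 7209 in f/f heart and 2265 in f/f muscle, 3.18-fold higher in heart. Acta1, skeletal alpha actin, read 1499 in f/f heart and 8635 in f/f muscle, 5.76-fold higher in muscle. Neither form was absent from the other tissue. The highest signal on the f/f arrays was 7970 in heart and 9717 in muscle, so folds of genes this bright can be compressed. In d/d heart Acta1 read 4668 against 9333 in d/d muscle, while Actc1 read 6286 and 2241.

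The 250 bases before the transcription start of both actin genes and of the natriuretic peptide genes Nppa and Nppb are shown because these are pairs of the same tissue contrast for which textbook promoter elements are known: the CArG box bound by serum response factor in actin genes, and GATAA, read by GATA factors, in natriuretic peptide genes. Sequences are RefSeq's, from the GRCm38.p6 build, 5′ to 3′ on the gene's strand. Capitals mark a CArG box, GATAA on either strand (TTATC on the other), or TATAAA, the core of the TATA box.

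Actc1, chr2:114052876-114053125, minus strand: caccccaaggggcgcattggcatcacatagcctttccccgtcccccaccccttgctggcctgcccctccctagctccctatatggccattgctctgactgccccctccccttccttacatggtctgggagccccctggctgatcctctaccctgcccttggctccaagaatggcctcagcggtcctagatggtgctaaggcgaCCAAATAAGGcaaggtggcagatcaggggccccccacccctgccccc

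Acta1, chr8:123894776-123895025, minus strand: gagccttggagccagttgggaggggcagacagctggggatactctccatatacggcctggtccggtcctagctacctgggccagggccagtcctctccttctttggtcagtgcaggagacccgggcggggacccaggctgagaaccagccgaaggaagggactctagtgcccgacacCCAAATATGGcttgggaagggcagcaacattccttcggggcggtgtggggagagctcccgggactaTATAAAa

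Nppa, chr4:148000472-148000721, plus strand: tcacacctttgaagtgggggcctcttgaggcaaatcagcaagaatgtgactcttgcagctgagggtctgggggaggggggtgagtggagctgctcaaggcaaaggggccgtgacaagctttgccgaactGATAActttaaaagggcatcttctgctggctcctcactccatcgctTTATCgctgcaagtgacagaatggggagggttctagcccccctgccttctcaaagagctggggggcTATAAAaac

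Nppb, chr4:147985650-147985899, plus strand: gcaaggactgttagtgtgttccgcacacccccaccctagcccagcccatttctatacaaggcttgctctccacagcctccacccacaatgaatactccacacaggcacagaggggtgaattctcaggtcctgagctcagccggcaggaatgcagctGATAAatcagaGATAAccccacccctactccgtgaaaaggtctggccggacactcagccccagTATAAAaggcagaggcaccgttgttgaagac

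The actin promoters each held 1 CArG box, 47 bases before the start in Actc1 and 73 in Acta1, although the genes were higher in opposite tissues. Nppa and Nppb, both higher in heart, each held 2 GATAA matches and a TATAAA. Of 14442 measured genes, 11569 had a promoter sequence. GATAA on either strand was in 15.7% of these promoters, in 14.7% of those at least 2-fold higher in heart and in 16.1% of those higher in muscle. Among genes at least 16-fold different, it was in 18 of 57 heart promoters (31.6%) and in 15.9% of 63 muscle promoters. CAGCTG, an E-box that reads the same on both strands, was in 12.1% of all promoters, 15.8% of the 16-fold heart promoters and 23.8% of the 16-fold muscle promoters. TATAAA was in 7.72%, 12.3% and 15.9% of the same sets, the CArG box in 1.23%, 5.26% and 1.59%, and the MEF2 motif in 1.84%, 5.26% and 7.94%. A MEF2 motif can overlap a TATAAA. These are matches of letters, not sites shown to be bound.

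Of 35 paralogue families, 27 had a heart form and a skeletal form that were both measured. In 23 of these the heart form was at least 2-fold higher in heart and the skeletal form at least 2-fold higher in muscle. The 4 exceptions were tropomyosin, alpha actinin, junctophilin and hexokinase. In the first 3 of these the skeletal form was far higher in muscle and the form listed for heart was shared by both tissues. The families were picked as known tissue pairs, so the direction of a switch follows from the choice, and the size of it is what was measured.

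**Figure D2:**
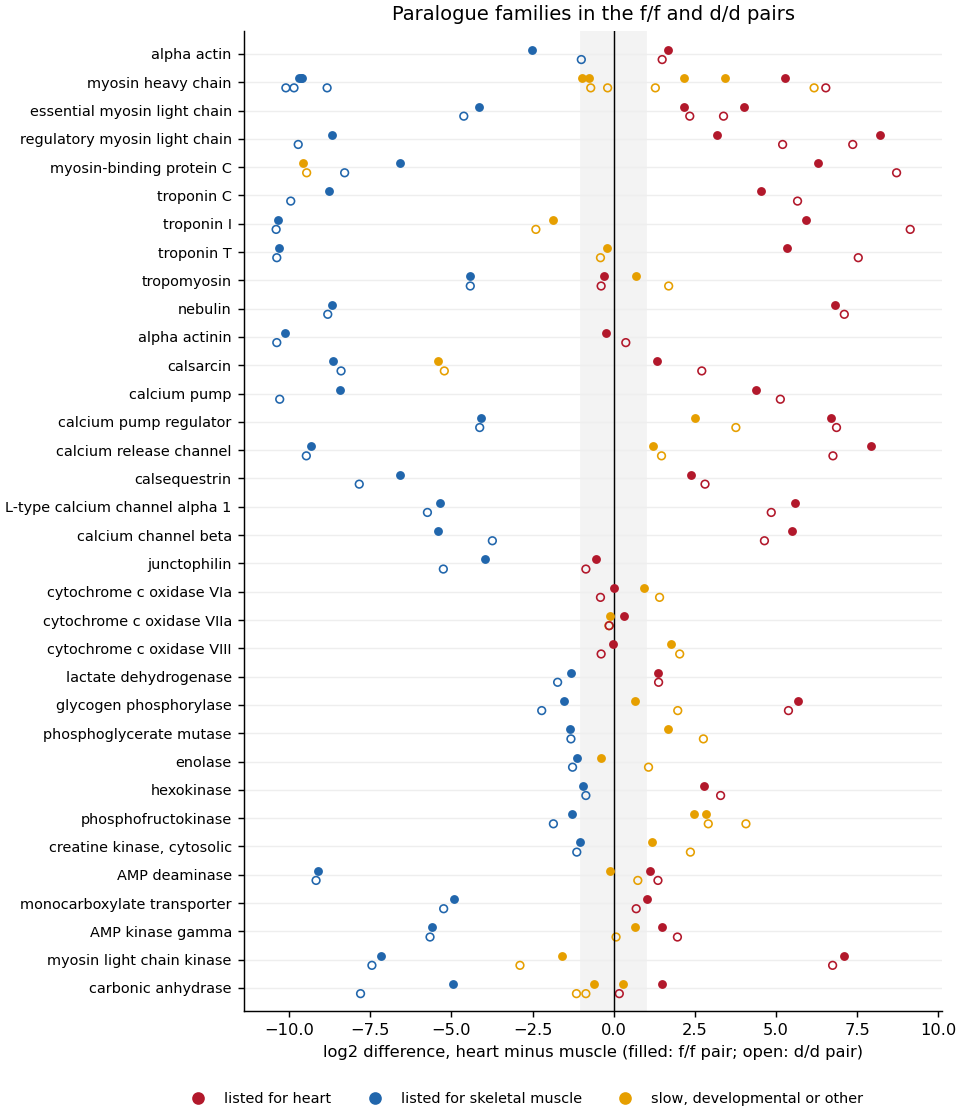
Log2 difference (heart minus muscle) of each member of 34 paralogue families, filled points for the f/f pair and open points for the d/d pair, coloured by the tissue for which the form was listed. The grey band marks less than 2-fold. Fast troponins, fast myosins and Actn3 sit near -10, the heart forms of most families lie right of the band, and cytochrome c oxidase forms listed for heart lie in it.

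In the thick filament, both tissues had their own myosins. Myh6, the adult ventricular myosin heavy chain of the mouse, read 7171 in f/f heart and 186 in f/f muscle, 38.5-fold higher in heart. The fast heavy chains Myh1, Myh2 and Myh4 read 8.16, 7.74 and 10.3 in heart and 6451, 6433 and 8053 in muscle, 783- to 832-fold higher in muscle. Slow myosin Myh7 was at 1140 in heart and 107 in muscle. It read 3953 and 55.1 in d/d heart and muscle. The developmental chain Myh3 read 13.6 and 26.8, less than 2-fold apart.

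Light chains and myosin-binding proteins followed the heavy chains. Myl7, the atrial regulatory light chain, read 2193 in heart and 1.60 in muscle, at least 292-fold. The ventricular light chain Myl2 was 9.13-fold higher in heart but still at 764 in f/f muscle, where d/d muscle read 189. Mylpf, the fast regulatory light chain, read 20.9 and 8641, 413-fold higher in muscle. Mybpc3 read 3755 and 47.9, 78.4-fold higher in heart, whereas the fast form Mybpc2 read 55.4 and 5315 and the slow form Mybpc1 0.510 and 5686. The kinases of the regulatory light chain split as well: Mylk3 read 1307 in heart and 9.51 in muscle, and Mylk2 2.47 and 1077. Of 25 thick filament genes, 10 were higher in heart and 11 in muscle, and 10 and 10 were limma calls. Myom2, an M-band protein, was shared, at 4250 and 4843.

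The troponins, which let calcium switch the thin filament on, showed some of the largest folds. Tnni2, fast troponin I, read 2.38 in heart and 9717 in muscle, at least 1293-fold higher in muscle. Tnnt3, fast troponin T, was at least 1282-fold higher in muscle. Tnni3 and Tnnt2, the cardiac troponins I and T used as blood markers of heart damage, read 5308 and 6507 in heart and 86.8 and 163 in muscle, log2 differences of 5.93 and 5.32. In d/d muscle they read 8.30 and 38.0. Tnnc1, made by heart and slow fibres, was 23.2-fold higher in heart. The slow skeletal forms were dim in both tissues, Tnnt1 at 44.0 and 51.4 and Tnni1 at 12.3 and 45.0.

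Other thin filament genes were split between tissue pairs and shared genes. Nebulin (Neb), the giant ruler of the skeletal thin filament, read 4.68 in heart and 3068 in muscle, while nebulette (Nebl), its small cardiac relative, read 1290 and 11.5. Tpm2 was 21.4-fold higher in muscle, but Tpm1 was shared at 5651 and 6917. Tmod4, which caps the pointed ends of skeletal thin filaments, was 16.6-fold higher in muscle, and Tmod1 was shared at 752 and 663. Of 20 genes, 6 were higher in heart and 9 in muscle, and 6 and 8 were limma calls.

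At the Z-disc, which anchors thin filaments of adjoining sarcomeres, 13 of 33 genes were higher in muscle and 5 in heart, and 11 and 4 were limma calls. Actn3, the fast fibre alpha actinin, read 7.23 and 8430, at least 1122-fold higher in muscle, beside a shared Actn2 at 2642 and 3148. Myoz1, a calsarcin that binds calcineurin, was 401-fold higher in muscle. Ankrd2 and Ankrd1, stretch-responsive ankyrin repeat proteins, differed in opposite directions: Ankrd2 read 5.78 and 1235, and Ankrd1 2827 and 172. Fhl2, a LIM-domain adaptor, read 2972 in heart and 15.8 in muscle. At 188-fold it had the largest heart to muscle ratio among genes above the floor on both arrays whose probe sets all pointed the same way. Its relative Fhl1 was 5.16-fold higher in muscle. Csrp3, a LIM protein of heart and slow fibres, read 4764 and 1979, but only 249 in d/d muscle against 5094 in d/d heart.

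Most calcium handling genes differed between the tissues. Of 39 genes, 12 were higher in heart and 21 in muscle, and 10 and 22 were limma calls, with a median of -1.41. The release channels switched from Ryr2, at 1812 in heart and 1.49 in muscle, to Ryr1, at 1.19 and 4866, at least 241-fold and 648-fold. Of the pumps that refill the store, Atp2a2 read 5903 and 285 and Atp2a1 24.1 and 8366. The 6 probe sets of Atp2a2 gave log2 differences from 0.06 to 5.88. Phospholamban (Pln), which brakes the cardiac pump, read 5508 and 53.0, 104-fold higher in heart. Myoregulin (Mrln), the skeletal counterpart, read 19.6 and 333, and sarcolipin (Sln) 855 and 152.

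The surface channel that starts release was exchanged subunit by subunit. Cacna1c, the pore of the cardiac L-type channel, read 359 in heart and 1.72 in muscle, and Cacna1s, the skeletal voltage sensor, 32.4 and 1311. The beta subunit Cacnb2 read 334 and 0.573, and Cacnb1 13.2 and 559. The gamma subunits Cacng1 and Cacng6 were 38.0-fold and 22.8-fold higher in muscle. Stac3, an adaptor needed for skeletal coupling, was at least 140-fold higher in muscle. The sodium-calcium exchanger Slc8a1, which removes calcium from heart cells, was 10.9-fold higher in heart, while its relative Slc8a3 was at least 51.6-fold higher in muscle.

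Store proteins and buffers differed too. Casq2 was 5.20-fold higher in heart and Casq1 96.7-fold in muscle. Parvalbumin (Pvalb), the buffer that speeds relaxation of fast fibres, read 15.7 and 7344, 467-fold higher in muscle. S100a1 was 4.31-fold higher in heart. Junctophilin Jph1 was 15.7-fold higher in muscle beside a shared Jph2 at 514 and 747. Bin1, which shapes transverse tubules, read 32.9 and 1358, though its other probe set differed by only -0.56 on the log2 scale.

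Junction genes were mostly higher in heart. Of 17 intercalated disc genes, 11 were higher in heart and 1 in muscle, with 10 and 1 limma calls and a median of 2.04. N-cadherin (Cdh2) read 1246 in heart and 11.9 in muscle, 105-fold higher. The desmosome genes Dsg2, Pkp2, Dsp and Dsc2, which weld heart cells together, were 24.6- to 53.7-fold higher. Gja1, connexin 43, the main gap junction protein of the ventricle, read 2686 and 366. Cdh15, M-cadherin of muscle progenitors, was the gene higher in muscle, 4.17-fold. Myzap, another disc protein, read 1269 and 19.0.

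The converse structure, the nerve contact of skeletal fibres, was seen in its receptor. Of 19 neuromuscular junction genes, 6 were higher in muscle and 1 in heart, with 5 and 1 limma calls. Without scaling the balance turned, with 5 higher in muscle and 8 in heart. The acetylcholine receptor subunits Chrna1 and Chrnb1 read 7.06 and 20.7 in heart and 66.9 and 126 in muscle. Acetylcholinesterase (Ache) was 5.17-fold higher in muscle and rapsyn (Rapsn), which clusters the receptor, 2.80-fold. Agrin (Agrn), released by the nerve and by other cells, was instead 4.94-fold higher in heart.

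Potassium channel genes, which set resting potential and repolarization, showed separate sets in each tissue. Of 36 genes, 13 were higher in heart and 7 in muscle, and 10 and 6 were limma calls. Kcnk3, a leak channel, read 358 and 3.67, at least 47.6-fold higher in heart. Kcnd2 with its partner Kcnip2, which carry the transient outward current of the mouse ventricle, were 20.6-fold and 21.1-fold higher. Kcnq1 and Kcne1, of the slow delayed rectifier, were 8.29-fold and at least 6.63-fold higher, and Kcnh2, of the rapid one, at least 32.9-fold. Kcnj3 and Kcnj5, opened by acetylcholine in the atrium, were 4.87-fold and at least 16.3-fold higher.

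Muscle held other potassium channels. Kcnc1 read 1.36 in heart and 430 in muscle, and Kcnc4 2.13 and 229. The large-conductance channel Kcnma1 was at least 15.6-fold higher in muscle and Kcna7 21.4-fold. Probe sets disagreed for some of these: those of Kcnc1 ran from -5.84 to 0.56 on the log2 scale and those of Kcnip2 from -0.41 to 6.37. Of the sodium, chloride and pump genes, 3 of 17 were higher in heart and 4 in muscle, with 3 and 4 limma calls. The muscle chloride channel Clcn1 read 2.38 and 144, Scn4b, a sodium channel beta subunit, 131 and 1168, and the chloride channel family member Clic4 1326 and 256.

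Fuel genes divided by pathway. Of 39 fatty acid genes, 16 were higher in heart and 0 in muscle, and 34 differed in the direction of heart, with a median of 0.74. Under the scaling alternatives the counts were 13 to 24 in heart and 0 in muscle. The folds were small beside those of the filaments. The uptake protein Cd36 read 2824 in heart and 1155 in muscle, and the carrier Fabp3 6474 and 2813. Within beta-oxidation, Hadha, the alpha subunit of the trifunctional protein, read 2387 and 1057, and Acaa2 2666 and 1016. Dgat2, which makes triglyceride, was 4.88-fold higher, and Plin5, which coats lipid droplets in oxidative tissue, 3.89-fold. The thioesterase gene Acot1 read 103 and 7.56, and 12.9 in both d/d tissues.

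The d/d pair held fewer such genes past 2-fold. In d/d tissue 5 of the 39 were at least 2-fold higher in heart and 2 in muscle, with a median of 0.38. The median over all genes in the d/d pair was 0.00. The 2-fold shares over all genes were not counted in that pair, so these counts have no background beside them. Only 5 were limma calls, all higher in heart: Dgat2, Plin5, Cpt1a, Fabp3 and Angptl4. Hadha read 1461 and 947 in d/d heart and muscle, and Acaa2 1245 and 956. Ucp3, a mitochondrial carrier, was shared in the f/f pair at 348 and 347, and read 9.81 and 150 in the d/d pair. The genes of ketone and branched-chain amino acid use showed 3 of 19 higher in heart and 2 in muscle, near the background shares. Bdh1, which interconverts ketone bodies, read 822 and 383. Slc16a3, the lactate exporter of fast fibres, read 0.765 and 226.

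Glycolysis and glycogen genes went the other way. Of 40 genes, 21 were higher in muscle and 7 in heart, with 17 and 7 limma calls and a median of -1.10. Without scaling the counts were 11 in muscle and 9 in heart, and under the other scalings 19 to 25 and 6. The heart-higher genes were mostly alternative isozymes. Ldhb, lactate dehydrogenase B, read 3557 in heart and 1389 in muscle, and Ldha 2565 and 6380. The brain form of glycogen phosphorylase, Pygb, read 1549 and 30.4, 51.0-fold higher in heart, while the muscle form Pygm read 1764 and 5046. Hexokinase Hk1 was 6.89-fold higher in heart, and Hk2 read 1023 and 1968. Phosphofructokinases Pfkl and Pfkp were 7.14-fold and 5.54-fold higher in heart, each with a dimmer probe set slightly the other way, and Pfkm was 2.45-fold higher in muscle.

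Genes that control glycogen differed as well. The phosphorylase kinase subunits Phkg1, Phka1 and Phkb read 41.2, 109 and 233 in heart and 941, 1544 and 1639 in muscle, 22.8-, 14.1- and 7.04-fold higher in muscle. Gys1, glycogen synthase, was 5.79-fold higher in muscle. Outside glycogen, Gpd2 and Gpd1, enzymes of the glycerol phosphate shuttle, were 16.8-fold and 6.27-fold higher. Core enzymes differed less, with Aldoa at 3965 and 9553, Tpi1 at 1981 and 5572 and Eno3 at 3592 and 7787, all bright enough for their folds to be compressed.

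RNA signals of the mitochondrial machinery were mostly shared after scaling. All 34 complex I genes differed by less than 1.5-fold, and 35 of 39 genes of complexes III and IV and ATP synthase did. Without scaling all 34 and all 39 lay toward heart. Their medians were then 0.39 and 0.44, beside 0.47 over all genes. Ndufs1 read 2546 and 2342, Cycs, cytochrome c, 5256 and 5606, and Atp5b 4323 and 4587. Cox6a2, Cox7a1 and Cox8b, the forms of cytochrome c oxidase subunits found in heart and muscle, read 5278, 3948 and 4750 in heart and 5291, 3160 and 4849 in muscle. Folds of genes this bright can be compressed. The widely expressed Cox8a was 3.37-fold higher in heart. Atpif1, an inhibitor of ATP synthase, read 1271 and 205, but its 3 probe sets ran from -0.13 to 2.63 on the log2 scale. Of 29 citric acid cycle and pyruvate dehydrogenase genes, 3 were higher in heart, 0 were higher in muscle and 24 differed by less than 1.5-fold. Citrate synthase (Cs) read 3646 and 3823. Idh2, the NADP-linked isocitrate dehydrogenase, read 3988 and 905, with a dim probe set at 14.1 and 30.5. Ribosomal protein genes were shared as well, with 19 of 19 under 1.5-fold.

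**Figure D3:**
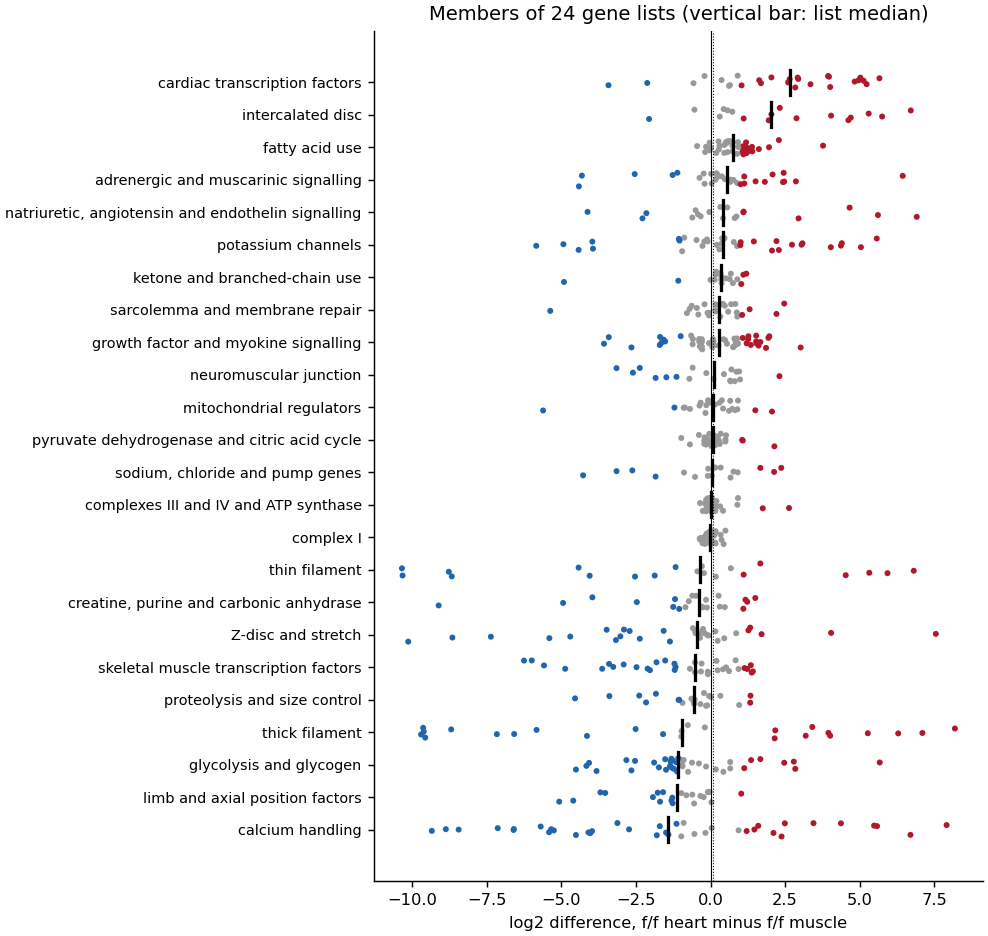
Log2 difference (heart minus muscle, f/f pair) of every measured member of 24 gene lists, 1 row per list, with a bar at the list median and colour for members at least 2-fold higher in heart (red) or muscle (blue). Respiratory chain lists form narrow columns at 0, fatty acid use lies right of 0, glycolysis left, and the filament and calcium lists spread to both sides.

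Of 22 genes of creatine, purine and carbonic anhydrase function, 4 were higher in heart and 7 in muscle, with 3 and 6 limma calls. Ampd1, the muscle AMP deaminase of the purine nucleotide cycle, read 1.79 in heart and 4159 in muscle, at least 554-fold higher in muscle. Car3, carbonic anhydrase of muscle, was 30.7-fold higher and Adssl1, the muscle adenylosuccinate synthase, 5.56-fold. Muscle creatine kinase (Ckm) read 4256 and 8826, 2.07-fold higher in muscle, and myoglobin (Mb) was shared at 7392 and 8191. Nmrk2, which phosphorylates nicotinamide riboside to make NAD precursors, read 43.8 and 681 in the f/f pair. It read 2041 and 1077 in the d/d pair, on the other side of 0.

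Regulators of mitochondria differed in about the background shares: 2 of 24 were higher in heart and 2 in muscle, and 2 and 3 were limma calls. Ppargc1a, a coactivator of mitochondrial genes, read 255 and 134, Esrra 202 and 202, and Tfam, of mitochondrial DNA, 223 and 252. Isoforms of AMP kinase, the cell's energy sensor, divided, with gamma subunit Prkag3 at 7.65 and 375 and Prkag2 at 100 and 35.4.

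Adrenergic and muscarinic signalling genes were higher in heart for 11 of 32 and in muscle for 5, with 9 and 5 limma calls. The list had 43 entries, of which 32 were matched to genes on the arrays, and all 32 were measured. No beta-adrenergic or muscarinic receptor was among the matched genes, so their signals were not examined. Rrad, a small GTPase that restrains the L-type calcium channel, read 652 in heart and 1.83 in muscle, at least 86.9-fold. The adenylyl cyclases Adcy5 and Adcy6, the main cardiac forms, were 5.56-fold and 4.24-fold higher in heart, and Adcy2 read 12.5 and 248, 19.8-fold higher in muscle. Phosphodiesterases split, with Pde3a 5.47-fold higher in heart and Pde4d 5.82-fold in muscle. Ppp1r1a, an inhibitor of protein phosphatase, was 21.3-fold higher in muscle. The stimulatory G protein gene Gnas was shared at 3146 and 3701. The alpha receptor Adra1b read 54.4 and 1.03 in the f/f pair and 12.1 and 5.01 in the d/d pair.

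Natriuretic peptides, hormones that the heart secretes to lower blood volume, gave large differences. Nppa read 3658 in f/f heart and 144 in f/f muscle, 25.4-fold higher, and Nppb 1945 and 39.7, 48.9-fold higher. Corin, the protease that activates them, read 1047 and 8.71, 120-fold higher. In the d/d pair Nppa read 6781 and 34.8 and Nppb 4873 and 1.34. Part of that larger gap lay on the muscle side, where f/f muscle read above d/d muscle. The receptors and clearance genes Npr2 and Npr3 read 159 and 81.4 in heart and 213 and 102 in muscle. In the whole list of natriuretic, angiotensin and endothelin genes, 6 of 19 were higher in heart and 3 in muscle, and 6 and 3 were limma calls. Agtr1a, the angiotensin receptor, was 7.73-fold higher in heart. Nos1, the neuronal nitric oxide synthase held at the muscle membrane, was 17.4-fold higher in muscle, and Nos3, the endothelial form, 2.15-fold higher in heart.

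Of 51 growth factor and myokine genes, 14 were higher in heart and 8 in muscle, both above the background shares, and 11 and 6 were limma calls. Fgf16, a cardiac fibroblast growth factor, read 60.8 and 1.26, and Fgf1 850 and 235. Ccn2, a matricellular growth factor, read 431 and 112, and 2348 and 105 in the d/d pair. Fndc5, the precursor of irisin, was 2.41-fold higher in heart. On the muscle side Wnt4 was at least 11.9-fold higher and Mss51 at least 10.6-fold. Irs1, the insulin receptor substrate, read 460 and 1486, and Acvr2b, a receptor for myostatin, 21.3 and 69.2.

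Protein turnover genes held 7 of 22 higher in muscle and 2 in heart, with 7 and 3 limma calls. Capn3, the muscle calpain, read 28.1 and 655, 23.3-fold higher in muscle. Klhl41 and Klhl40, which stabilise the thin filament, were 10.4-fold and 5.25-fold higher. The ubiquitin ligases of atrophy, Trim63 and Fbxo32, were shared at 903 and 1145 and at 577 and 622. Of 27 membrane genes, 4 were higher in heart, 1 was higher in muscle and 22 differed by less than 2-fold, among them Dmd, dystrophin, at 243 and 261, and Cav3, caveolin of muscle, at 173 and 180.

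Most transcription factors of the cardiac list were higher in heart. Of 27 factors, 26 were above the floor in f/f heart and 16 in f/f muscle. Those above it in heart alone were measured through heart, which fixes their direction. Higher in heart were 19 and in muscle 2, with 17 and 2 limma calls and a median of 2.65. Tbx20 read 508 in heart and 10.1 in muscle, 50.4-fold higher. Gata4 and Nkx2-5, core regulators of the cardiac program, read 244 and 233 in heart and 4.35 and 6.76 in muscle, at least 32.5-fold and 31.0-fold. Hand2 was at least 37.6-fold higher, Hopx, a homeodomain protein without DNA binding of its own, 35.1-fold, and Myocd, the coactivator of serum response factor, at least 28.4-fold. Gata5 was near the floor on both arrays, at 9.10 and 10.4. The factors higher in muscle were Mef2c and Zfp423. Mef2c, needed for heart development and active in both tissues, read 238 and 2551, 10.7-fold higher in muscle, on 5 probe sets from -3.45 to -2.94. In the d/d pair it read 257 and 2100.

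Of 35 skeletal muscle factors, 16 were higher in muscle and 5 in heart, and 13 and 4 were limma calls. Above the floor were 34 in f/f muscle and 27 in f/f heart. The direction of those above it on 1 of these arrays alone is fixed. Myf6, the myogenic factor of adult fibres, read 4.85 and 570, at least 75.9-fold higher in muscle. Myod1 read 9.18 and 88.0, and Myog 1.19 and 32.4. Factors of fibre type and muscle origin followed: Vgll2, a TEAD cofactor, was 47.9-fold higher, Tbx15, found in fast fibres, at least 63.5-fold, Lbx1, of migrating limb muscle precursors, at least 29.3-fold, and Sox6, a repressor of slow genes, 7.53-fold. The Id genes Id1 and Id2, inhibitors of such factors, were 2.56-fold and 2.34-fold higher in heart.

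Hox genes mark position along the axes of the embryo, and the list that holds them also holds other factors of limb and trunk position. Of 22 limb and axial factors, 11 were higher in muscle and 1 in heart, with 8 limma calls, all higher in muscle. All 22 were above the floor in f/f muscle and 7 in f/f heart, so 15 were measured through muscle alone, which fixes their direction. The count higher in muscle was 5 of 13 with a 60th percentile floor and 7 of 22 with a pseudocount of 16. Hoxc10 read 2.30 in heart and 253 in muscle, at least 33.7-fold higher. Hoxa9, Hoxa10 and Hoxc9 read 0.850, 6.04 and 2.55 in heart and 183, 97.1 and 86.8 in muscle. They repeated in d/d muscle, at 155, 88.4 and 81.3, with Hoxc10 at 230. The hindlimb factor Tbx4 read 2.81 in heart and 13.2 in f/f muscle, and was under the floor in both d/d tissues. Hoxb2 was the gene higher in heart, at 21.6 and 10.5, with a log2 difference of -0.09 in the d/d pair. The labels name no muscle, and these values do not supply the name.

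**Figure D4:**
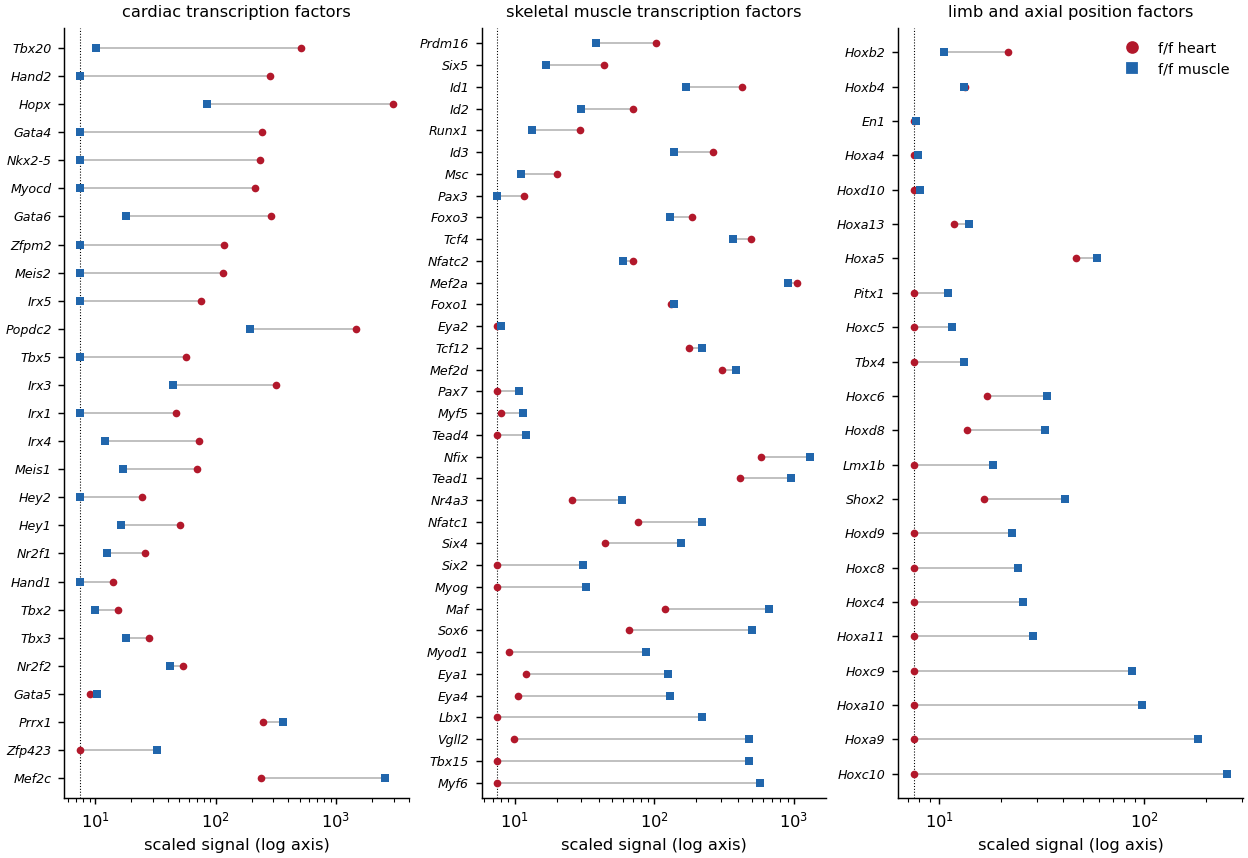
Signals (log axis) of every measured factor of 3 lists on the f/f heart array (circles) and the f/f muscle array (squares), joined by a line per gene, with the floor dotted. Cardiac factors such as Tbx20 and Gata4 lie far above the floor in heart and at or near it in muscle, while Myf6, Tbx15 and Hoxc10 show the reverse.

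Some genes with the largest differences lay outside the lists. Ptgds, a prostaglandin D synthase, read 3173 in heart and 25.1 in muscle, 126-fold higher in heart. Tecrl, a reductase-like protein linked to inherited arrhythmia, was at least 97.6-fold higher in heart, Tesc, a calcium-binding protein, at least 90.8-fold and Slc25a13, the mitochondrial aspartate-glutamate carrier, at least 81.4-fold. Mov10l1 was at least 56.0-fold and Ccdc141 43.0-fold higher in heart. In muscle Padi2, which converts arginine in proteins to citrulline, read 12.5 and 721, the surface glycoprotein gene Cd24a 38.9 and 2189, and Neurl1a 8.50 and 386. All 9 were limma calls, with adjusted p-values from 0.00029 to 0.0016. They were picked by the size of their difference on f/f arrays that the fit reuses, so these calls add no separate support.

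Markers of other cell types moved with parts of the contrast. Macrophage markers were higher in heart for 4 of 14, with summed signals of 3850 in f/f heart and 2369 in f/f muscle. Endothelial markers were higher for 4 of 14, with sums of 7205 and 5603. Fibroblast sums were close, at 10850 and 11211, though Tcf21, a marker of cardiac fibroblasts, read 173 and 8.93, and the collagen genes Col1a1 and Col1a2 were 4.33-fold and 4.21-fold higher in muscle. Epicardial markers were dim, with 4 of 7 higher in heart and sums of 141 and 72.7. All 7 were above the floor in f/f heart and 4 in f/f muscle, so the direction of those measured through heart alone was fixed. The count higher in heart was 0 of 4 with a 60th percentile floor and 1 of 7 with a pseudocount of 16. Of 12 smooth muscle and pericyte markers, 0 were higher in heart and 1 in muscle. Of 5 nerve and Schwann markers 2 were higher in muscle, the myelin gene Mbp at 23.1 and 208 among them. The part of these cells in the differences above was not tested.

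Tendon markers had a median of -3.93. Of 7, 6 were higher in f/f muscle, with summed signals of 179 in heart and 2582 in muscle. All 7 were above the floor in f/f muscle and 3 in f/f heart. Markers measured through muscle alone had their direction fixed. Tnmd, the tendon gene tenomodulin, read 1.53 and 302, at least 40.2-fold higher in muscle, and Thbs4, a matrix glycoprotein, 48.9 and 747. In the d/d pair the sums were 2231 in heart and 1537 in muscle, and Tnmd read 105 and 113. Of the 7, Kera was the limma call (adjusted p 0.0087). The part of tendon in the f/f muscle sample was not tested.

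Cardiac transcripts in the muscle samples also differed. Summed signals of the 17 cardiomyocyte markers were 5012 in f/f muscle and 2728 in d/d muscle, against 52295 and 54956 in the hearts. The 13 slow fibre markers summed to 7615 in f/f muscle and 3322 in d/d muscle. Most of the cardiomyocyte marker sum in f/f muscle came from Actc1 at 2265 and Csrp3 at 1979. Tnni3, Nppa and Nppb, known as heart genes, read 86.8, 144 and 39.7 in f/f muscle and 8.30, 34.8 and 1.34 in d/d muscle, while Myl7, Ryr2 and Gata4 were under the floor in f/f muscle. Log2 differences of Tnni3, Nppa and Nppb were 5.93, 4.66 and 5.61 in the f/f pair and 9.13, 7.61 and 9.34 in the d/d pair. The part of a slow fibre share or of cardiac RNA in f/f muscle was not tested.

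Across all genes the d/d pair, which shares no array with the f/f pair, mostly gave the same direction. Of the 1736 heart-higher genes, 1537 differed in the same direction in the d/d pair and 1014 (58.4%) by at least 2-fold. Of the 1190 muscle-higher genes, 1014 differed in the same direction and 731 (61.4%) by at least 2-fold. At 16-fold or more the counts were 76 of 77 and 85 of 87. By at least 2-fold in the opposite direction, 11 and 26 genes differed. All these genes were picked on the f/f pair, and the 2-fold shares over all genes in the d/d pair were not counted. The Pearson correlation of the log2 differences was 0.767 across genes, which are not independent replicates. A gene that differs between the pairs cannot be assigned to genotype or to spread between samples.

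**Figure D5:**
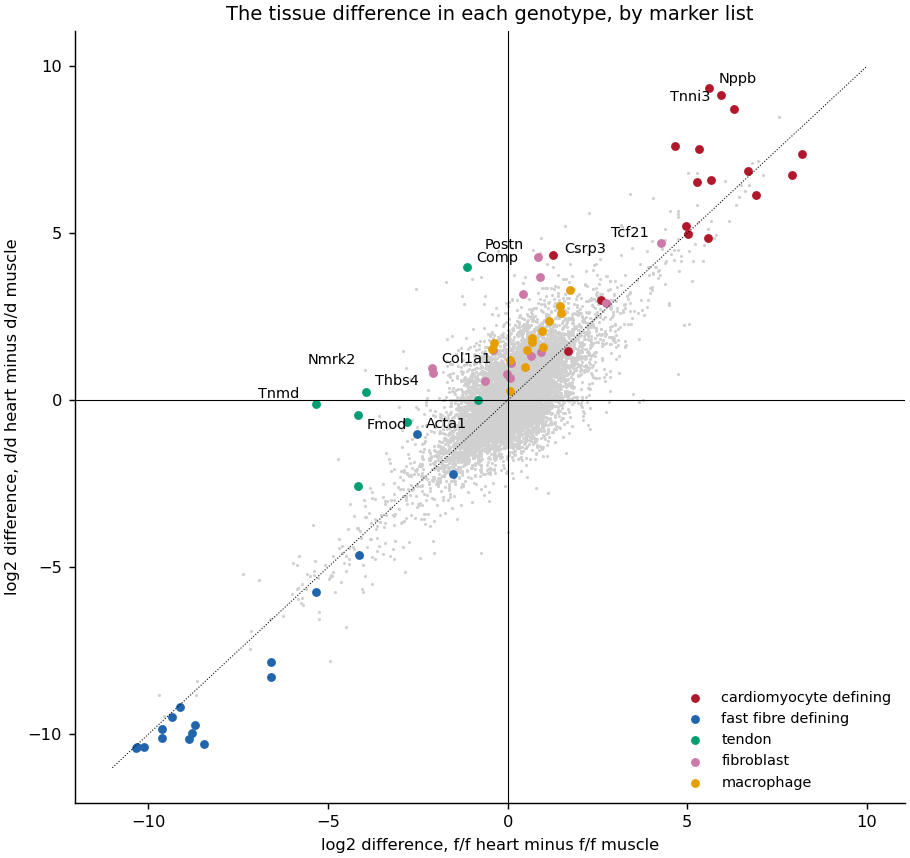
Log2 difference (heart minus muscle) of each measured gene in the f/f pair (horizontal axis) and the d/d pair (vertical axis), with marker lists in colour and a dotted line where both are equal. In both pairs cardiomyocyte markers lie on the heart side and fast fibre markers on the muscle side. Not all of them are on the line: Tnni3 and Nppb lie well above it. Macrophage markers lie above the line, and tendon markers such as Tnmd and Thbs4 lie near 0 on the vertical axis.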

How the data were processed

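Each sample was a total RNA preparation of mouse heart or muscle on 1 array. The authors deposited linear intensity values, without detection calls, for 45101 probe sets on each array. The sources used here do not give the steps between scan and intensity. After 64 control probe sets were left out, arrays were scaled to a common 2% trimmed mean (factors 0.850 for f/f heart, 1.15 for f/f muscle, 0.884 for d/d heart, 1.22 for d/d muscle), signals under the floor (mean 40th percentile, 7.51) were set to it, and log2 was taken. On the 4 arrays 58.0% to 61.1% of probe sets were above the floor. Of 45037 probe sets, 34945 had 1 symbol in the platform annotation, 932 had several and were not named, and 9160 were unnamed. For each gene the probe set brightest on average (log2) over the f/f pair was used.

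With 1 array per group, a gene was called at 2-fold. The tissue effect over both genotypes was fitted with limma 3.58.1 in R 4.3.3, with a genotype block, on genes that passed the floor on 2 or more arrays. In 5 simulations of this fit over 13434 genes, with 200 genes changed, 0% were recovered at a log2 change of 1, where all calls were false, 29.8% at 2, 99.4% at 4 and 100% at 8, with false calls at 10.8%, 9.55% and 8.51% of calls for the last 3 sizes.

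The 45 gene lists had 1042 entries, of which 951 matched. Named genes are all members of the paralogue families, up to 6 members per list and direction with the largest differences, defining forms of a tissue, the 15 largest ratios and 8 largest lower bounds in each direction whose probe sets agree. Other genes were named as textbook representatives of a shared pathway, after their values were seen. Members and lists were chosen with earlier results of these data known. Alternatives covered scaling, floor, pseudocount, fold threshold, the choice of probe set and the limma settings.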

Additional observations from a re-analysis of the deposited data

Results flagged for a closer look

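Comp, a cartilage and tendon matrix protein, differed in opposite directions in the 2 pairs. It read 49.2 in f/f heart and 108 in f/f muscle, a log2 difference of -1.13, and 900 in d/d heart and 57.1 in d/d muscle, a log2 difference of 3.98. With 1 array per group this difference between the pairs was not tested.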

How the results depend on the processing

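The counts at 2-fold, 1736 in heart and 1190 in muscle, moved with the floor, the threshold and the scaling. They were 674 and 494 at a 3-fold threshold, 3007 and 2366 with a 20th percentile floor, 951 and 714 with a pseudocount of 16 in place of the floor, and 3429 and 665 without scaling. The limma counts, 1109 and 777, became 2739 and 486 without scaling and 1795 and 1343 with a mean-variance trend. Under quantile normalization they were 633 and 591, and scaled to the median 809 and 922, with the balance turned to muscle. Under a 20th percentile floor limma called 0 and 0 of 16575 genes, while 1938 and 1544 had an unadjusted p under 0.05. The cause of these changes was not tested. The median of the cardiac factors moved from 2.65 to 1.98 under a 60th percentile floor and to 1.66 with the pseudocount. Under the 20th percentile floor the median of the skeletal factors moved from -0.52 to -1.20 and that of the limb and axial factors from -1.13 to -1.96. Without probe sets that can share sequence the intercalated disc median was 2.93. Small differences could cross 0 and still count as moving little. Without scaling all 34 complex I genes were above 0, against 14 in the main processing. The thin filament median went from -0.36 to 0.07. Of the list medians under the alternatives, 342 moved little and 11 moved. Of the single-gene values 3070 moved little, 367 moved and 8 were counted as reversed. Those counted as reversed were Ibsp at 0.16 without scaling, and Atpif1 at -0.05, Runx1 at -0.09 and Trp63 at 0.18 with the median over probe sets. Without probe sets that can share sequence they were Atpif1 at -0.13, Idh2 at -1.11, Pfkl at -0.48 and Trp63 at 0.49. Leaving out a replicate was not possible with 1 array per group. The limma fit held genotype as a block, and without it the counts were 1120 and 885. The labels carry no replicate numbers to block on.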

Other observations

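Some genes gave opposite answers on different probe sets. Of 6695 genes with several measured probe sets, 50 had a probe set at least 2-fold higher in f/f heart and another at least 2-fold higher in f/f muscle, and 7 of these did so in the d/d pair too. They were singled out after their values were seen. Trdn, triadin, which anchors calsequestrin beside the release channel, read 323 in heart and 11.1 in muscle on a probe set and 139 and 6047 on another, log2 differences of 4.86 and -5.45. In the d/d pair these were 4.76 and -7.64. Asph, whose locus also encodes junctin, a partner of triadin, read 247 and 36.0 on a probe set and 388 and 1263 on another, and differed by 3.12 and -2.11 in the d/d pair. Rtn4, a reticulon of the endoplasmic reticulum, read 43.0 and 21.4, and 377 and 3002. The others were Epb41l5, Camta1, Reep3 and F11r. For such genes the value of a single probe set does not stand for the gene, and which transcript each probe set reads was not examined.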
